A study of Mus musculus with 6 samples.

Results

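The genes described here are 10 feedback regulators and transcriptional readouts of the ERK pathway, *Dusp4*, *Dusp5*, *Dusp6*, *Spry1*, *Spry2*, *Spry4*, *Spred1*, *Spred2*, *Etv4* and *Etv5*, chosen by name as a list of genes that ERK signalling is known to induce. All 10 were found among the 25403 genes of the count table, each with a single row, and all 10 had enough counts to be tested among the 14496 genes that passed the filter on low counts. Bulk RNA-seq was performed on liver from 3 wild-type C57BL6/J mice (WT) and 3 whole-body *Themis* KO mice, 1 library per liver. Mice of both groups had started the MASH diet, also labelled AMYLIN liver NASH diet, at 10 to 12 weeks of age and were fed it for 3 months, which supplied 40% of its kilocalories as fat and 20% as fructose and held 2% cholesterol. No chow-fed liver was included, so the comparison is between genotypes on the same diet. The part of *Themis* that the knockout allele lacks is not given in the sources used here, and because the knockout is whole-body, T cells carry it as well as hepatocytes.

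The RAS/ERK cascade carries signals from growth factor receptors through RAS, RAF and MEK to the kinase ERK. Active ERK switches on genes whose products turn the pathway down again. DUSP phosphatases remove the activating phosphates from MAP kinases, and Sprouty and SPRED proteins act further upstream on RAS and RAF activation. *Etv4* and *Etv5* encode PEA3-family ETS transcription factors that are induced by the same signal. For this reason the mRNA of these genes is widely used as a readout of ERK output, whereas phosphorylation itself is not seen in RNA. THEMIS is best known as a regulator of T cell receptor signalling in thymocytes.

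Libraries held between 20679642 and 25649767 counts, and values are given as CPM, the count of a gene scaled to library size after TMM normalization. *Themis*, the targeted gene, was at 8.07, 25.6 and 12.0 CPM in the WT livers, in the order of replicates 1, 2 and 3 that is kept throughout, and at 8.63, 7.74 and 9.97 CPM in the *Themis*-KO livers. WT replicate 1 fell between KO livers (log2 fold change −0.79, SE 0.38, edgeR adjusted p = 0.199), so *Themis* reads did not separate the labels, and each group is named by its label only. Without WT replicate 2 the log2 fold change of *Themis* was −0.20 (adjusted p = 0.597), and over all livers left out in turn it ran from −1.10 to −0.20. WT replicates 1 and 2 also stood apart from the other 4 livers in how reads were divided between the mitochondrial gene *mt-Nd3* and the pseudogene *Gm28438*, which took 96.6% and 96.8% of their sum in these livers against 2.2% to 3.26% in the rest. Values of WT replicate 3 are therefore set against the *Themis*-KO livers below, as the comparison within 1 type. The fit with this type as a covariate takes its genotype difference from WT replicate 3 alone among the WT livers. Its adjusted p-values, given for single genes below, therefore cannot decide whether a call holds.

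Of the 10 ERK feedback regulators, *Dusp5* rose and *Spry4* fell in livers labelled *Themis*-KO at an adjusted p under 0.05, and the other 8 did not pass. *Dusp5* was 6.32-fold higher and *Spry4* was 1.77-fold lower. Over all genes tested, 4.97% were called higher and 4.14% lower, or 9.11% in either direction, and 1 of 10 members was called in each direction. At an adjusted p under 0.1, which 20.6% of all genes passed, *Dusp4* and *Spred1* joined them, to make 3 members higher and 1 lower. Before adjustment, 5 members were higher and 1 was lower at a p under 0.05, which 30.7% of all genes passed. The log2 fold change was positive for 9 members and negative for *Spry4*, with a median of 0.515 against 0.00952 over all genes tested. Livers of the groups did not overlap for 5 of the 10 members, with the *Themis*-KO livers above for *Dusp4*, *Dusp5*, *Spry1* and *Spred1* and below for *Spry4*, where 34.6% of all tested genes had no overlap, 17.7% with the KO livers above and 16.9% with them below. In whole liver, a change in the number of cells that express a gene and a change in RNA per cell cannot be told apart.

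**Figure D1:**
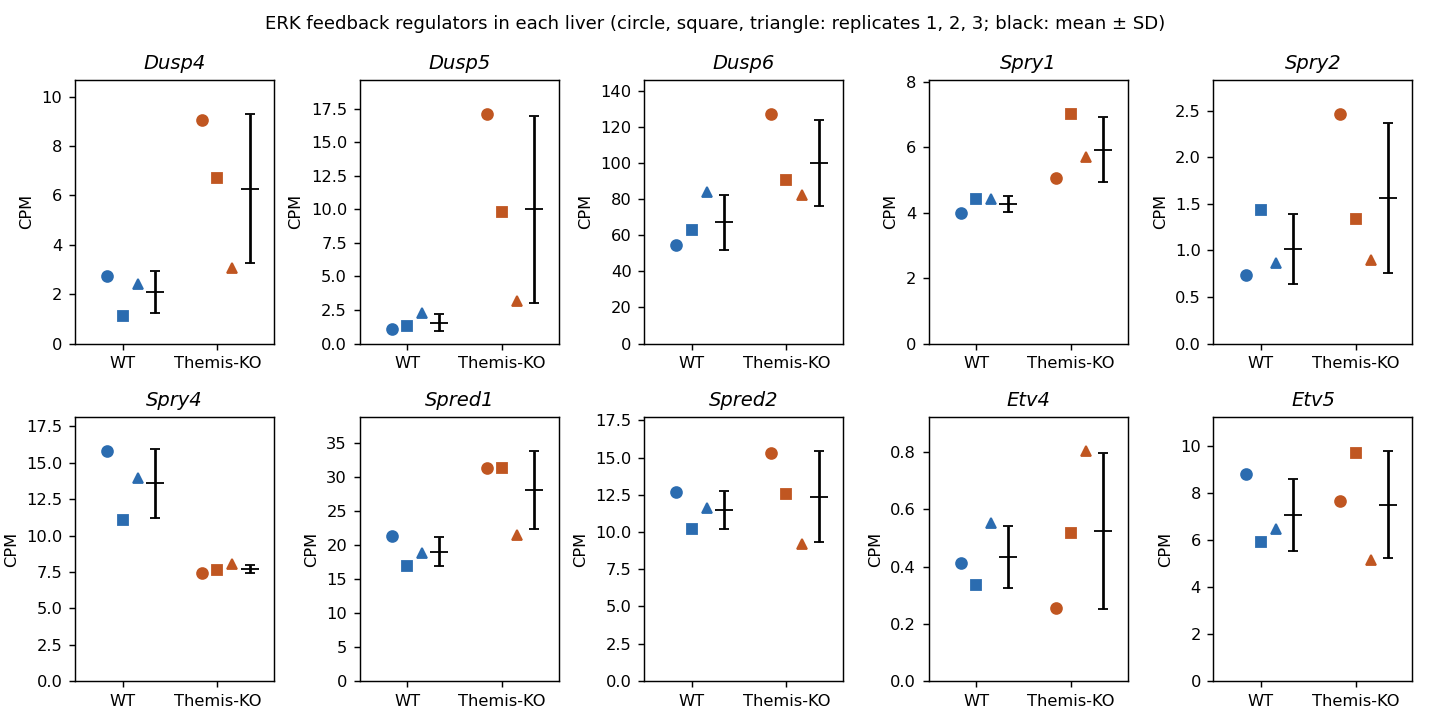
CPM (y axis, from 0, a scale of its own for each gene) of the 10 genes in the 3 livers labelled WT (blue) and the 3 labelled *Themis*-KO (orange), with circles, squares and triangles for replicates 1, 2 and 3 and black bars for the mean ± SD. *Dusp5* ran from 1.10 to 2.25 CPM in WT and from 3.16 to 17.1 CPM in KO livers, and *Spry4* from 11.1 to 15.8 CPM in WT and from 7.44 to 8.03 CPM in KO livers.

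Among the phosphatases, *Dusp5* encodes a nuclear enzyme that acts on ERK and also holds it in the nucleus. Its counts were 24, 28 and 57 in the WT livers and 402, 227 and 67 in the KO livers. On the CPM scale these were 1.10, 1.34 and 2.25 in WT and 17.1, 9.76 and 3.16 in KO livers. The 3 KO livers thus lay above all WT livers but far apart, with KO replicate 3 close to WT replicate 3. The mean was 1.57 ± 0.61 CPM (SD, n = 3) in WT and 10.0 ± 6.96 CPM (SD, n = 3) in KO livers, with a log2 fold change of 2.66 (SE 0.59, 95% interval 1.3 to 4.02, edgeR adjusted p = 0.0386). *Dusp4*, a second nuclear phosphatase with a wider range of MAP kinase substrates, had 2.75, 1.10 and 2.41 CPM in WT and 9.05, 6.71 and 3.07 CPM in KO livers. KO replicate 3 was again the lowest KO liver and lay just above WT replicate 1. The log2 fold change of 1.58 (SE 0.44, 95% interval 0.56 to 2.61) had an edgeR adjusted p of 0.0623. *Dusp6*, the cytoplasmic phosphatase with a preference for ERK, was by far the most abundant member, with 54.5, 62.8 and 84.0 CPM in WT and 127, 90.6 and 82.2 CPM in KO livers. Here the groups overlapped, since WT replicate 3 exceeded KO replicate 3 (log2 fold change 0.58, SE 0.20, 95% interval 0.10 to 1.05, edgeR adjusted p = 0.107). Left out in turn, KO replicate 3 was the only liver whose removal kept *Dusp5* under an adjusted p of 0.05 (0.00204), and without any other liver the adjusted p ran from 0.059 to 0.143. Without KO replicate 3, *Dusp4* (0.00682) and *Dusp6* (0.041) were also under 0.05, in a fit that called 2228 of 14806 genes higher and 2039 lower. Without any other liver *Dusp4* and *Dusp6* ran from 0.11 to 0.196 and from 0.0709 to 0.318. Among the 8 alternatives that use all livers, *Dusp4* passed in 3, DESeq2 (adjusted p = 0.00319), no filter (0.0085) and total counts alone (0.0482). *Dusp6* passed in 2, DESeq2 (0.0472) and no filter (0.0428). Over all genes, DESeq2, no filter and total counts alone called 1273, 1212 and 1449 higher, against 721 in the main fit. The log2 fold change of *Dusp6* was 0.36 without KO replicate 1 and 0.25 with the mitochondrial type as a covariate (adjusted p = 0.73). The adjusted p of *Dusp5* was 0.109 with the replicate number as a block and 0.468 with the mitochondrial type as a covariate, with log2 fold changes of 2.43 and 2.15.

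*Dusp5* (ENSMUSG00000034765) codes for protein and spans 53529109 to 53542431 on chromosome 19 (GRCm38), read from the forward strand. The stretch of 120 bases just before this start is shown because *Dusp5* was the member that rose and the only one of those searched with a match to any of the motifs looked for. It was taken from RefSeq (GRCm38.p6), forward strand, chr19:53528989-53529108, and the capitals mark 2 adjoining CArG boxes.
*Dusp5* upstream: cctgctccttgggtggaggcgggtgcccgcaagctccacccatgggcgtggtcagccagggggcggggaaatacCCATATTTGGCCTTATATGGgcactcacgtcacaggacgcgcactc
A CArG box is the site of serum response factor (SRF), which works with ETS-domain partners that ERK phosphorylates. The boxes lie from 53529063 to 53529072 and from 53529073 to 53529082, inside the area that the antisense gene *Gm50394* also covers (0 to 3 counts per liver). RefSeq windows of 250 bases before the start were at hand for 7 of the 10 members, 8 windows in all since *Etv5* has a second start. Both strands were searched for 4 motifs. CArG boxes were found in 1 of these 8 windows and in 1.47% of the 32851 windows of all genes. The ETS-type site CCGGAA (12.0% of all windows), the AP-1 site TGACTCA (4.46%) and the CRE TGACGTCA (1.55%) were found in 0 of the 8. Shorter forms of the ETS site, such as GGAA, were not searched for. A match of letters does not show that the factor binds there, and the absence of these exact letters says nothing of the factor. Windows of *Dusp4*, *Spry4* and *Etv4* were not analysed here.

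The Sprouty genes encode membrane-associated inhibitors of growth factor signalling, and the 3 measured here did not move together. *Spry4* (ENSMUSG00000024427, reverse strand of chromosome 18, from 38586247 to 38601415) was at 15.8, 11.1 and 13.9 CPM in the WT livers and at 7.44, 7.61 and 8.03 CPM in the KO livers. All 3 KO livers lay below all WT livers and close to each other, unlike those of *Dusp5*. Its mean fell from 13.6 ± 2.37 CPM to 7.69 ± 0.30 CPM (SD, n = 3 per group), and the log2 fold change was −0.82 (SE 0.15, 95% interval −1.17 to −0.48, edgeR adjusted p = 0.0261). *Spry1* was at 3.99, 4.41 and 4.42 CPM in WT and at 5.06, 7.01 and 5.71 CPM in KO livers. The groups did not overlap, but the log2 fold change of 0.47 (SE 0.17, 95% interval 0.08 to 0.86) had an edgeR adjusted p of 0.108. The antisense gene *Gm42922*, which overlaps *Spry1*, had 0 to 7 counts per liver. *Spry2* had few reads, with 16, 30 and 22 counts in WT and 58, 31 and 19 counts in KO livers, and the groups overlapped (log2 fold change 0.64, 95% interval −0.36 to 1.64, edgeR adjusted p = 0.343). The log2 fold change of *Spry2* was 0.14 without KO replicate 1 and 0.96 without WT replicate 2. The call for *Spry4* was kept without WT replicate 2 (adjusted p = 0.047) and without KO replicate 3 (0.00936) and lost without any of the other 4 livers (0.0516 to 0.109), and its log2 fold change stayed between −0.95 and −0.71. It was also lost with the replicate block (adjusted p = 0.0887, log2 fold change −0.81) and with the mitochondrial type as a covariate (0.374, −0.86).

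SPRED proteins bind neurofibromin and bring it to RAS at the membrane. *Spred1* was at 21.2, 16.9 and 18.9 CPM in WT and at 31.4, 31.3 and 21.4 CPM in KO livers. KO replicates 1 and 2 were clearly above the WT livers, and KO replicate 3 was level with WT replicate 1. The log2 fold change was 0.56 (SE 0.16, 95% interval 0.18 to 0.94, edgeR adjusted p = 0.0696). Without KO replicate 3 it was 0.70 (adjusted p = 0.0045), in a fit that called 2228 of 14806 genes higher and 2039 lower. The adjusted p of *Spred1* was 0.137 to 0.212 without any other liver and 0.124 with the replicate block. Its log2 fold change was 0.57 with the mitochondrial type as a covariate. *Spred1* passed in 3 of the 8 alternatives that use all livers, DESeq2 (adjusted p = 0.026), no filter (0.028) and total counts alone (0.044). These fits also called more genes higher over all. *Spred2* was at 12.7, 10.2 and 11.6 CPM in WT and at 15.3, 12.6 and 9.21 CPM in KO livers, so that the KO livers spanned the WT range on both sides. Its interval, from −0.34 to 0.55 around a log2 fold change of 0.11 (edgeR adjusted p = 0.735), includes both a fall and a rise of moderate size.

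Neither ETS factor gene passed the test, and the groups overlapped for both. *Etv5*, the more abundant of the pair, was at 8.81, 5.90 and 6.47 CPM in WT and at 7.65, 9.68 and 5.15 CPM in KO livers. The highest and the lowest of the 6 livers were both KO livers. Its log2 fold change was 0.09 (SE 0.25, 95% interval −0.50 to 0.67, edgeR adjusted p = 0.834). *Etv4* had 9, 7 and 14 counts in WT and 6, 12 and 17 counts in KO livers, at which depth a difference was not detectable (log2 fold change 0.24, 95% interval −0.84 to 1.32, edgeR adjusted p = 0.752). The sign of *Etv4* and *Etv5*, and that of *Spred2*, turned when single livers were left out.

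**Figure D2:**
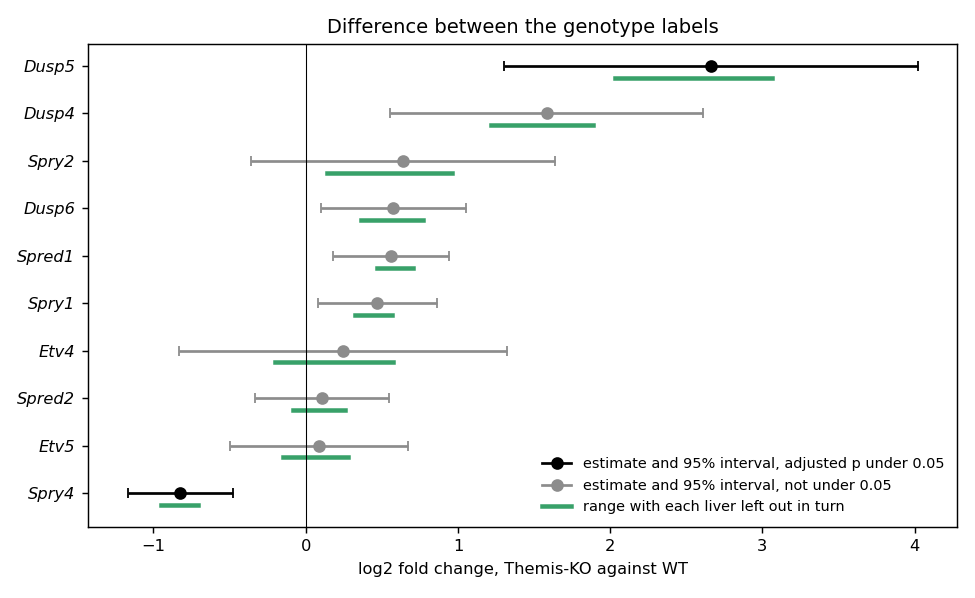
Log2 fold change of each gene between livers labelled *Themis*-KO and WT (x axis, points) with its 95% interval from the edgeR fit (bars), in black for an adjusted p under 0.05 and grey otherwise, and the range of the estimate with each liver left out in turn (green). *Dusp5* at 2.66 and *Spry4* at −0.82 lie at opposite ends, and the green ranges of *Spred2*, *Etv4* and *Etv5* cross 0.

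Within the mitochondrial type that WT replicate 3 shares with the *Themis*-KO livers, the order was as follows. For *Spry4*, WT replicate 3 at 13.9 CPM was above all KO livers (7.44 to 8.03 CPM). For *Dusp5*, it was at 2.25 CPM and below all KO livers (3.16 to 17.1 CPM), and for *Dusp4* at 2.41 CPM and below them too (3.07 to 9.05 CPM). For *Dusp6*, at 84.0 CPM, it lay inside their range (82.2 to 127 CPM). WT replicate 3 was also below all KO livers for *Spry1* (4.42 against 5.06 to 7.01 CPM) and *Spred1* (18.9 against 21.4 to 31.4 CPM). For *Spry2* it was narrowly below them (0.868 against 0.897 to 2.465 CPM), and for *Spred2*, *Etv4* and *Etv5* it lay inside their range. A single WT liver gives no test, and the split and the genotype cannot be told apart for the other WT livers.

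When CPM was divided by the exon length of each gene, so that genes could be compared, *Dusp6* stood at 21.4 ± 4.86 CPM per kb (SD, n = 3) in livers labelled WT, above every other member. *Spry4* (2.86 ± 0.50), *Spred1* (2.80 ± 0.32) and *Spred2* (2.49 ± 0.28 CPM per kb) followed, and neighbours among these 3 overlapped between livers. *Etv5* (1.72 ± 0.38) and *Spry1* (1.47 ± 0.085 CPM per kb) came next and overlapped. *Dusp4* (0.762 ± 0.32), *Dusp5* (0.633 ± 0.25) and *Spry2* (0.486 ± 0.18 CPM per kb) overlapped from neighbour to neighbour, and *Etv4* was lowest at 0.140 ± 0.035 CPM per kb. In livers labelled *Themis*-KO, *Dusp5* stood at 4.04 ± 2.82 CPM per kb, a mean close to the 4.13 ± 0.84 of *Spred1*, whereas *Spry4* was at 1.62 ± 0.064 CPM per kb. These lengths count all annotated exons of a gene, not the transcripts used in liver.

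**Figure D3:**
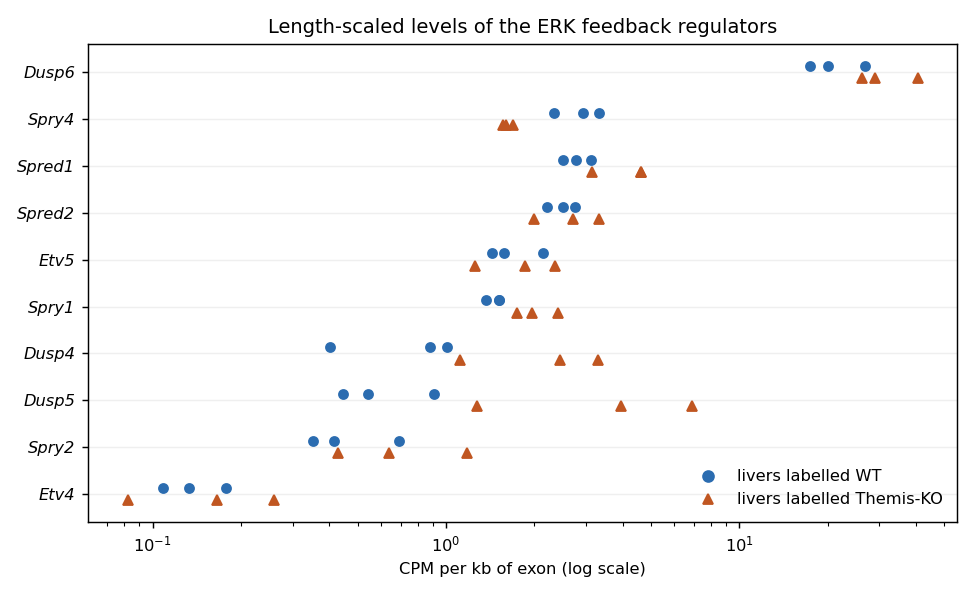
CPM per kb of exon (x axis, log scale) of the 10 genes in each liver labelled WT (blue circles) and *Themis*-KO (orange triangles), ordered by the mean of the WT livers. *Dusp6* lies alone at the top, the KO livers of *Dusp5* spread over a wider range than its WT livers, and those of *Spry4* lie together below its WT livers. Livers at nearly the same level cover each other, as for *Spry1* in WT and *Spred1* in KO livers.

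Across the 6 livers, members differed in which livers were high. On log2 CPM, *Dusp5* ran with *Dusp6* (Pearson r = 0.929), *Spred1* (0.908) and *Dusp4* (0.904), and *Dusp4* ran with *Spred1* (0.971). *Spry4* ran against *Dusp5* (r = −0.831) and against *Spry1* (−0.83). These values describe 6 points that include the difference between the groups. Among 13047 other named genes, the patterns most like that of *Spry4* were those of *Kyat1* (r = 0.9998), which encodes a kynurenine aminotransferase, *Mup3* (0.9958) and *Mup19* (0.9951), which encode major urinary proteins made by hepatocytes. *Kyat1*, with a log2 fold change of −1.19 (edgeR adjusted p = 0.0161), *Mup3* at −1.20 (0.0223) and *Mup19* at −2.47 (0.00936) all fell, though *Mup* genes are near-identical and share reads. For *Dusp6* the most alike were *Cdk4* (0.9911), *Adamts1* (0.9906) and *Rpl11* (0.9888). For *Spred1* they were *Hspa12b* (0.9955), *Prmt3* (0.9948) and *Atf5* (0.9943), and for *Etv5* they were *Txlna* (0.9946), *Ocln* (0.9941) and *Utp25* (0.9927). These are the highest of 13047 correlations over 6 livers, are given as a description and carry no p-value.

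The cascade that the members feed back on was read from a list of 39 genes, from the adaptors GRB2 and SHC1 through SOS, RAS, RAF and MEK to ERK and its RSK targets. Of the 38 tested, 3 rose and 0 fell, or 7.89% against 9.11% over all genes. *Mapk3*, which encodes ERK1, was at 38.7, 44.4 and 40.1 CPM in WT and at 56.6, 49.2 and 57.2 CPM in KO livers, with no overlap (log2 fold change 0.40, SE 0.096, edgeR adjusted p = 0.0426). *Rras*, a RAS-related GTPase gene, changed by 0.46 (SE 0.11, edgeR adjusted p = 0.0426) and *Cblb*, which encodes a ubiquitin ligase that downregulates receptors, by 0.79 (SE 0.18, edgeR adjusted p = 0.0407). Of the partners through which THEMIS acts in T cells, *Grb2* had a log2 fold change of 0.17 (edgeR adjusted p = 0.293), *Ptpn11* (SHP2) 0.22 (0.195) and *Ptpn6* (SHP1) 0.27 (0.118). The median of the list was 0.169. All 3 calls of this list were lost with the replicate block and with the mitochondrial type as a covariate. Without KO replicate 3 the list had 12 calls, where 2228 of all 14806 genes tested were called higher and 2039 lower.

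A further 20 genes known to respond to ERK and not among the members gave 1 call among 16 tested, or 6.25% against 9.11% over all genes. This was *Hbegf*, an EGF receptor ligand gene, at 0.73, 0.72 and 0.91 CPM in WT and at 4.38, 2.49 and 1.70 CPM in KO livers (log2 fold change 1.85, SE 0.38, edgeR adjusted p = 0.0335), and it too was lost with the block and with the mitochondrial type. The median log2 fold change of the list was 0.63, and 13 of the 16 were positive, where 7394 of 14496 genes were positive over all. Before adjustment, 8 of the 16 were higher at a p under 0.05 and 0 were lower. Of all 14496 genes, 2438 were higher and 2011 lower at this p. The genes named next from the 8 were picked by it. The 7 of these that did not pass after adjustment were *Kcnn4*, *Maff*, *Ccnd1*, *Fosl1*, *Plaur*, *Ier3* and *Mcl1*, named after their values were seen. *Kcnn4*, which encodes a calcium-activated potassium channel, was at 0.73, 0.62 and 1.03 CPM in WT and at 3.19, 1.76 and 1.42 CPM in KO livers, with no overlap (edgeR adjusted p = 0.0562). *Fosl1*, an AP-1 subunit gene, was at 0.14, 0 and 0.51 CPM in WT and at 12.5, 7.10 and 0.14 CPM in KO livers, so that KO replicate 3 was level with WT (edgeR adjusted p = 0.0626). *Maff*, a small MAF transcription factor gene, was at 9.63, 8.45 and 14.0 CPM in WT and at 64.1, 38.5 and 12.8 CPM in KO livers (edgeR adjusted p = 0.0604). *Plaur*, the urokinase receptor gene, was at 0.73, 0.91 and 2.57 CPM in WT and at 8.92, 5.59 and 2.13 CPM in KO livers (edgeR adjusted p = 0.0769). For *Plaur*, *Maff* and *Fosl1*, KO replicates 1 and 2 were above all WT livers and KO replicate 3 was below WT replicate 3. *Ier3* had a log2 fold change of 1.64 (edgeR adjusted p = 0.117) and *Mcl1*, which encodes a survival factor of the BCL2 family, 0.43 (edgeR adjusted p = 0.12). *Areg*, another EGF receptor ligand gene, was left out by the filter with 3, 5 and 2 counts in WT and 48, 35 and 6 counts in KO livers. *Ccnd1*, which encodes cyclin D1, was at 53.4, 56.8 and 81.1 CPM in WT and at 89.5, 124 and 92.5 CPM in KO livers (edgeR adjusted p = 0.0614). In contrast, *Egr1* (log2 fold change 0.07, edgeR adjusted p = 0.939) and *Phlda1* (−0.84, edgeR adjusted p = 0.29) had positive and negative values within a wide spread. With *Phlda1*, the 3 negative genes of the list were *Errfi1* (−0.28, edgeR adjusted p = 0.378) and *Tfpi2* (−0.30, edgeR adjusted p = 0.186).

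Among 25 relatives of the members, 22 were tested, 6 rose and 0 fell, or 27.3% against 9.11% over all genes. This list was chosen with earlier results of these data known, so its share is a description only. *Dusp1*, which encodes a phosphatase that acts mainly on p38 and JNK, was at 22.3, 23.7 and 37.7 CPM in WT and at 60.3, 55.4 and 62.8 CPM in KO livers. KO replicate 3 was the highest of the 6 livers here, unlike for *Dusp5* (log2 fold change 1.09, SE 0.19, edgeR adjusted p = 0.0249). *Dusp8*, which encodes a JNK and p38 phosphatase, was at 2.02, 2.40 and 3.00 CPM in WT and at 12.8, 9.46 and 3.78 CPM in KO livers (log2 fold change 1.80, SE 0.42, edgeR adjusted p = 0.0408). *Dusp16*, which encodes a JNK phosphatase, changed by 0.57 (SE 0.14, edgeR adjusted p = 0.0488). The ETS factor genes *Ets2* (1.39, SE 0.30, edgeR adjusted p = 0.0374), *Elf1* (0.49, SE 0.12, edgeR adjusted p = 0.0416) and *Ets1* (0.42, SE 0.093, edgeR adjusted p = 0.0392) rose as well, and their relatives *Elk1* (0.11), *Elk4* (−0.085), *Erf* (0.059) and *Etv1* (0.25) did not pass. *Ets2* was at 30.2, 28.0 and 33.8 CPM in WT and at 111, 87.5 and 42.8 CPM in KO livers, the order of KO livers also seen for *Dusp5*. *Dusp10* (log2 fold change 1.74, edgeR adjusted p = 0.0734) and *Dusp2* (1.54, edgeR adjusted p = 0.0571), named after their values were seen, did not pass. With the replicate block, 0 of the list had an adjusted p under 0.05 and 10 an unadjusted p under 0.05. Over all genes, 1949 were higher and 1496 lower at that unadjusted p with the block. With the mitochondrial type the list had 0 and 6. Without KO replicate 3 the list had 10 calls, where 2228 of all 14806 genes tested were called higher and 2039 lower.

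**Figure D4:**
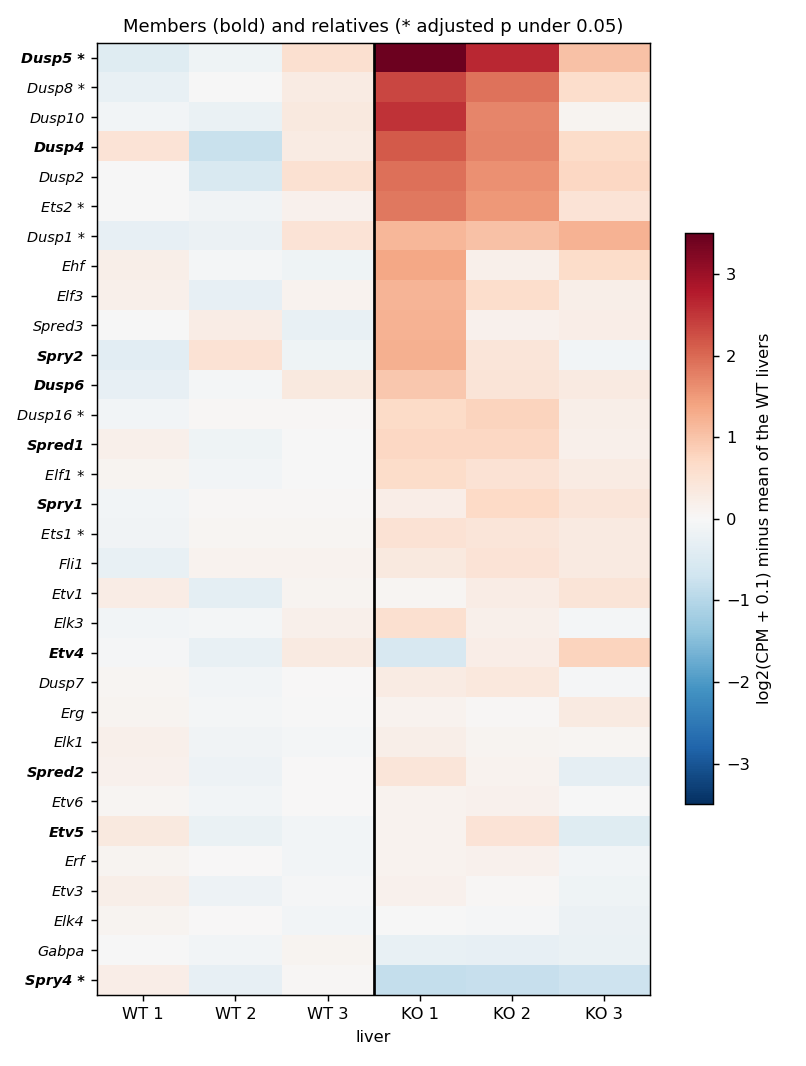
Each liver's log2(CPM + 0.1) minus the mean of the 3 livers labelled WT (colour, blue below and red above) for the 10 members (bold) and their 22 tested relatives, sorted by log2 fold change, with a star for an adjusted p under 0.05. Red is deepest in KO replicates 1 and 2 for *Dusp5*, *Dusp8*, *Dusp10*, *Dusp4*, *Dusp2* and *Ets2*, is paler in KO replicate 3 for these genes, and *Spry4* is blue in all 3 KO livers.

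Markers of liver cell types were read beside these genes, since whole liver was measured. The 11 hepatocyte markers summed to between 65300 and 68100 CPM in livers labelled WT and to between 50000 and 56300 CPM in livers labelled *Themis*-KO, without overlap, and 2 of 11 fell (*Cyp2e1* and *Ass1*). *Alb* made up most of the sum, with means of 41690 CPM in WT and 34860 CPM in KO livers (edgeR adjusted p = 0.185). The log2 fold change was negative for 10 of the 11 and positive for 1, *Hnf4a* (0.05, edgeR adjusted p = 0.842). Over all genes, 9.11% were called and 30.7% had an unadjusted p under 0.05, which is the background for each marker count here. The 10 hepatic stellate cell markers summed to 445 to 506 CPM in WT and 674 to 726 CPM in KO livers. All 10 log2 fold changes were positive, and 5 of 10 rose, *Dcn*, *Col1a1*, *Col1a2*, *Col3a1* and *Pdgfrb*. *Des* (log2 fold change 0.22, edgeR adjusted p = 0.345), *Lrat* (0.12, 0.476), *Reln* (0.05, 0.763), *Rgs5* (0.39, 0.085) and *Acta2* (0.84, 0.105) did not pass. The 7 cholangiocyte markers summed to 27.0 to 31.3 CPM in WT and to 58.5, 31.6 and 35.1 CPM in KO replicates 1, 2 and 3, with 0 of 6 tested called (2 at an unadjusted p under 0.05). The 9 macrophage markers (289 to 504 against 485 to 624 CPM, 3 rose) overlapped between groups, and those of 9 endothelial genes (295 to 333 against 342 to 378 CPM, 1 rose) did not. The neutrophil markers summed to 5.37 to 9.08 CPM in WT and to 21.1, 14.9 and 6.90 CPM in KO replicates 1, 2 and 3, with 0 of 3 tested called and 3 at an unadjusted p under 0.05. The KO livers ranked from replicate 1 down to 3 for *Dusp4*, *Dusp5*, *Dusp6*, *Spry2*, *Spred1* and *Spred2*. The neutrophil sums and the stellate cell sums (726, 694 and 674 CPM) had this order too. *Spry4*, *Etv4*, hepatocyte sums (50000, 50500 and 56300 CPM) and proliferation sums (28.6, 29.7 and 30.1 CPM) had the reverse order. *Spry1* and *Etv5* had neither order. Nor did cholangiocyte, macrophage (485, 624 and 489 CPM), endothelial (345, 342 and 378 CPM), T cell and B cell sums. The 6 proliferation markers summed to 12.1 to 21.0 CPM in WT and 28.6 to 30.1 CPM in KO livers, and 2 rose. T cell markers (2.89 to 3.87 against 2.75 to 6.88 CPM, 0 of 4 tested called) and B cell markers (2.34 to 5.57 against 1.59 to 4.91 CPM, 0 of 4 called) were near the floor in both groups, with 0 at an unadjusted p under 0.05. The part of these cell types in the values of *Dusp5*, *Spry4* and the other members was not tested.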

How the data were processed

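Per the labels and the Methods, poly(A) RNA of frozen liver was sequenced as paired-end libraries, and the submitters' processing notes name cutadapt 2.3, STAR 2.7.8a and RSEM 1.3.3 with GRCm38. The annotation release and the strand setting are not given in the sources used here. The authors deposited RSEM estimated counts per gene, whole numbers in the table and not normalized, with 1 column per liver. Depth was 20679642 to 25649767 counts per library.

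Differences were tested on the counts by edgeR 4.0.16 under R 4.3.3 (filterByExpr, TMM, glmQLFit and glmQLFTest on all 6 livers, no covariate, Benjamini-Hochberg adjustment over 14496 genes, threshold 0.05), after the scripts had been tested on simulated data. The SE of each log2 fold change was derived from the fit's F statistic, and the 95% intervals use this SE. The p-values measure the spread between 3 livers per group, counted as separate mice. No 2 libraries agreed within sampling noise (lowest chi-square per degree of freedom 9.12). CPM carry no prior count, and correlations used log2 CPM with a prior count of 2. Coordinates and exon lengths are from GENCODE vM21 (GRCm38), which held 25321 of the 25403 genes. Unused columns of samples: 0. Figures were drawn with matplotlib 3.10.9.

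The members and lists were chosen with earlier results of these data known. Named were all members, *Themis*, each gene of the ERK cascade, ERK-responsive and family lists with an adjusted p under 0.05, and for *Dusp6*, *Spry4*, *Spred1* and *Etv5*, the most abundant member of each family, the 3 genes with the highest Pearson correlation (predicted genes left out). Other genes of these lists were named after their values were seen.

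Alternatives were RLE, upper quartile and total-count scaling, no filter, a minimum of 10 counts per liver, DESeq2 1.42.0 (the authors used another version of this tool), a replicate block, the mitochondrial type (*Gm28438* above 50% of its sum with *mt-Nd3*) as a covariate, an adjusted p under 0.1, and each liver left out in turn.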

Additional observations from a re-analysis of the deposited data

How the results depend on the processing

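*Dusp5* and *Spry4* kept their direction in all alternatives run, with log2 fold changes from 2.03 to 3.06 and from −0.95 to −0.69. Both passed in 6 of the 8 that use all livers, losing the call with the replicate block and the mitochondrial type. With the mitochondrial type the genotype difference rests on WT replicate 3 alone among the WT livers, so calls lost there cannot decide whether a call holds. The causes were not tested. The labels share replicate numbers without saying what a number marks. The paper describes the sequenced livers as 3 pairs of the 2 genotypes, and what pairs them is not given. The block may follow that pairing. Same-numbered livers did not deviate together (correlations of −0.241 to 0.000277, mean −0.132, against 0.066 for different numbers). Counts below are in the order of all genes higher and lower (721 and 600), members higher and lower (1 and 1), ERK cascade (3), other ERK-responsive genes (1), relatives (6) and cell type markers (13). With the replicate block they were 17 and 45, 0 and 0, 0, 0, 0 and 1. With the mitochondrial type as a covariate they were 0 and 3, 0 and 0, 0, 0, 0 and 0, where an unadjusted p under 0.05 was found for 783 and 741 genes, 1 and 1 members, 1, 2, 6 and 13. At an unadjusted p under 0.05 the block gave 1949 genes higher and 1496 lower over all. Among them were 5 members higher and 1 lower, 8 cascade, 9 responsive and 10 related genes.
With DESeq2, 1273 and 1084 genes, 4 members higher (*Dusp4*, *Dusp5*, *Dusp6* and *Spred1*), 5 cascade genes, 6 responsive genes and 23 markers passed. With no filter these were 1212 and 967, 4 (the same members), 5, 8 and 21. Scaling by total counts alone gave 1449 and 387 genes (78.9% higher, against 54.6%), 3 members higher, 7 cascade genes and 4 responsive genes, and moved the median log2 fold change of all genes to 0.147. Upper quartile scaling gave 1 cascade gene, and an adjusted p under 0.1 gave 3 members higher, where 20.6% of all genes pass.
With each liver left out in turn, all genes ran from 8 to 2228 higher and 12 to 2039 lower, members from 0 to 4 higher and 0 to 1 lower, the cascade from 0 to 12, the responsive genes from 0 to 11, the relatives from 0 to 10 and the markers from 0 to 22. Each count was highest without *Themis*-KO replicate 3 (for members lower, equally without WT replicate 2), and both counts of all genes were lowest without *Themis*-KO replicate 1.
The sign turned for *Etv4* with the mitochondrial type (−0.088) and without KO replicate 3 (−0.20), for *Etv5* without WT replicate 2 (−0.027) or KO replicate 2 (−0.15), and for *Spred2* without KO replicate 1 (−0.082). With single livers left out their upper values were 0.574, 0.28 and 0.261.
At these depths *Etv4*, at 6 to 17 counts per liver, and *Spry2*, at 16 to 58, limit what can be seen.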
